A study of Mus musculus with 3 samples.

Results

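The 5p arms of the miR-290 cluster, which runs from miR-290 to miR-295, are the mature miRNAs cut from the 5′ side of its 7 hairpins. They were taken by name from the deposited lists of mature miRNAs, and all 7 were found (miR-290-5p, miR-291a-5p, miR-291b-5p, miR-292-5p, miR-293-5p, miR-294-5p and miR-295-5p) among 693 listed miRNAs. Short RNAs were sequenced from TAG1 cells, a mouse ES cell line in which a constitutively active receptor, Alk4*, can be induced with doxycycline. Each condition had 1 library, so no difference below has a replicate check. Control (0 hr) cells were left untreated. SB cells (16 hrs) had 30 µM of an inhibitor that blocks the phosphorylation of Smad2/3, named SB-431541 in the labels and SB-431542 in the methods, for 16 hrs. Dox cells (16+12 hrs) had this inhibitor first for the same time and dose, and afterwards 1 µg/µl doxycycline for 12 hrs to switch on Alk4*. All media held LIF, but according to the methods Control cells grew in FBS and the treated cells in serum replacement (KSR), so serum and treatment cannot be told apart in a comparison with Control. Dox cells were also 12 hrs longer in culture after the start of treatment than SB cells, and a library of that age without doxycycline was not analysed here.

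A miRNA hairpin is cut from its primary transcript by Drosha and opened by Dicer into a duplex of a 5p and a 3p strand, of which usually a single strand is kept in the silencing complex. The target is chosen mainly through the seed, the bases near the 5′ end of the strand that is kept. The miR-290 cluster is the main miRNA cluster of mouse ES cells and of the early embryo, it is lost on differentiation, and some of its members are known to promote the passage from G1 to S phase. The 5p arms share a precursor with the 3p arms but carry other seeds, so they would pair with other targets.

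The mature sequences show how the 7 arms are related. They are taken from RefSeq (GRCm38.p6), which held all 7 and names miR-290-5p and miR-292-5p miR-290a-5p and miR-292a-5p, and are written 5′ to 3′ in their order along the locus with the seed (bases 2 to 8) in capitals.
miR-290-5p: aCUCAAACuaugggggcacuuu
miR-291a-5p: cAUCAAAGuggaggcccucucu
miR-292-5p: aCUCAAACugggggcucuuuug
miR-291b-5p: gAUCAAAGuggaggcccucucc
miR-293-5p: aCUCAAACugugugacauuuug
miR-294-5p: aCUCAAAAuggaggcccuaucu
miR-295-5p: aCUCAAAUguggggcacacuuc
The arms fell into 4 seed groups. miR-290-5p, miR-292-5p and miR-293-5p had the seed CUCAAAC, miR-291a-5p and miR-291b-5p had AUCAAAG, and miR-294-5p (CUCAAAA) and miR-295-5p (CUCAAAU) each stood alone. All 7 carried UCAAA at bases 3 to 7, a string found there in 8 of the 1738 mature miRNAs in the RefSeq table (0.460%). The other holder was miR-292b-5p, cut from a hairpin on the opposite strand of the miR-292 locus, which shares the seed of miR-294-5p and was not among the listed miRNAs. Among the listed miRNAs outside the cluster that the RefSeq table holds under the same name, none shared a seed with a 5p arm. Listed miRNAs without a sequence there could not be checked.

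The seed of miR-293-3p, the 3p arm with the most reads, is another one (GUGCCGC). For comparison, the 3p arms of miR-291a, miR-294 and miR-295 are shown in the same way, because their common seed is the one for which the cluster is known.
miR-291a-3p: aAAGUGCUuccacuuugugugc
miR-294-3p: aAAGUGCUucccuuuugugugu
miR-295-3p: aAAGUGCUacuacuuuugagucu

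All 7 5p arms are 22 bases long, with a GC content between 36.4% for miR-293-5p and 59.1% for miR-291b-5p, and 7 of the 22 positions hold the same base in every arm. Over the 21 pairs, identity without gaps had a median of 63.6% and ran from 50.0% to 90.9%. The most alike were miR-291a-5p and miR-291b-5p, which differ by C1G and U22C (the base of miR-291a-5p first, positions counted from the 5′ end) and share a run of 20 bases. The authors kept reads longer than 16 bases and gave a read that fitted several miRNAs equally well to each of them, so a shortened read from this shared run could have been counted for both arms, and their values are uncertain to that extent. The longest run shared by any other pair was 10 bases.

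On GRCm38 the 5p arms lie on the + strand of chromosome 7 within 2162 bases. miR-290-5p is at chr7:3218639-3218660, followed by miR-291a-5p at chr7:3218932-3218953, miR-292-5p at chr7:3219200-3219221 and miR-291b-5p at chr7:3219494-3219515. After a gap come miR-293-5p at chr7:3220356-3220377, miR-294-5p at chr7:3220655-3220676 and miR-295-5p at chr7:3220779-3220800. In the GENCODE annotation each lies in the exon of its own miRNA gene. Every arm except miR-290-5p also lies, on the opposite strand, within an exon of Nlrp12, a gene for an inflammasome-related receptor.

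The deposited values are normalised read counts (rpm), which the authors scaled to a read total of each library. Every value was a whole multiple of the worth of 1 read, which was 0.0913 rpm in Control, 0.0881 rpm in SB and 0.101 rpm in Dox, so the read numbers could be recovered. The totals implied by these steps were 91.8%, 91.9% and 87.8% of the reads obtained in the sequencing runs, so the scaling left out some reads, a larger share of them in Dox, and which ones is not given in the sources used here. The libraries held 2739358 to 3302828 reads on listed miRNAs. Between 128 and 390434 reads stood behind each value of a 5p arm. Intervals in brackets are 95% exact intervals unless stated otherwise, and they cover counting error only, for reads that carry no molecular identifiers. The listed ES cell markers outside the cluster, miR-302a-3p, miR-302b-3p, miR-302c-3p, miR-302d-3p and miR-367-3p, were detected at low levels and summed to 52.9 rpm in Control, 64.2 rpm in SB and 33.3 rpm in Dox, with 2 of the 5 higher in SB than in Control (26.0% of all listed miRNAs), 4 lower in Dox than in SB (26.6%) and 1, miR-367-3p, higher (52.5%). These counts are of log2 ratios of at least 0.32 in size, the fold threshold of the study and the one used throughout. The 3p arms of the miR-290 cluster summed to between 35140 and 41068 rpm. Of 6 markers of neural, liver, blood and muscle cells, miR-142-3p was not listed, and the other 5 summed to 1821 rpm in Control, 1619 rpm in SB and 2414 rpm in Dox, most of it miR-124-3p with 1736, 1517 and 2278 rpm. Past the threshold, 2 of these 5 were higher in SB than in Control (26.0% of all) and 1 was lower (42.9%). In Dox against SB, 2 were higher (52.5%) and 2 lower (26.6%). All 10 fibroblast markers (miR-143-3p, miR-145-5p, miR-145-3p, miR-199a-5p, miR-199a-3p, miR-199b-3p, miR-214-3p, miR-21-5p, miR-22-3p and miR-29a-3p) were listed and none was at 0, although miR-214-3p had a single read in Dox (0.101 rpm). They summed to 4054 rpm in Control, 10460 rpm in SB and 4428 rpm in Dox. The values of miR-199a-3p and miR-199b-3p were identical, so these sums and the counts may hold the same reads for both. Past the threshold, 9 of the 10 were higher in SB than in Control (26.0% of all). In Dox, 8 were lower than in SB (26.6%) and 1, miR-145-3p, was higher (52.5%). The sums of miR-302 with miR-367-3p and of the fibroblast list were thus highest in SB, where the sum of the 5p arms was lowest. The sum of the other tissue list was, like that of the 5p arms, lowest in SB and highest in Dox. That sum was mostly miR-124-3p, and the members of the list went both ways. The part of all these markers in the results below was not tested. In bulk RNA, fewer cells of a type and less of an RNA per cell cannot be told apart.

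As a group the 5p arms were lower in SB than in the other libraries. Their summed level was 46646 rpm (46518 to 46774) for Control, 26834 rpm (26739 to 26930) for SB and 52690 rpm (52547 to 52833) for Dox. Of all reads on listed miRNAs they held 16.5%, 11.1% and 15.8%. The log2 ratio of the sum was −0.80 (−0.80 to −0.79) for SB over Control and 0.97 (0.97 to 0.98) for Dox over SB, beside −0.23 and 0.47 for the sum of all listed miRNAs. miR-290-5p alone supplied 76.4%, 67.4% and 71.0% of the reads of the 7 arms. Without it the sums were 11009, 8740 and 15284 rpm with log2 ratios of −0.33 and 0.81, so both differences were smaller without it, and the share of miRNA reads was 3.89%, 3.62% and 4.58%.

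**Figure D1:**
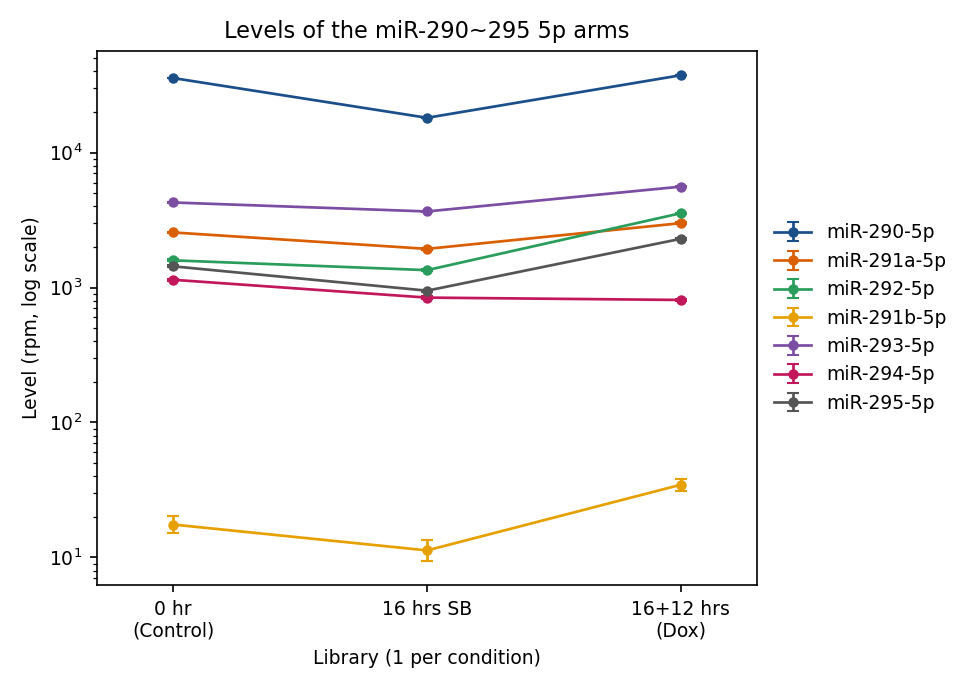
Level of each 5p arm (rpm, log scale) in the 3 libraries, with 1 point per library and 95% exact Poisson intervals as bars, which cover counting error only. miR-290-5p lies above all others, miR-291b-5p lies below 35 rpm, miR-292-5p passes miR-291a-5p in Dox, and miR-294-5p is the arm with no higher level in Dox than in SB.

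The arms have the same length, but how well each sequence is captured and amplified in a library was not measured, so their order is one of normalised reads and not of molecules. miR-290-5p came first and miR-293-5p second in every library. miR-290-5p was 8.35-fold above miR-293-5p in Control, 4.94-fold in SB and 6.69-fold in Dox. In Control and in SB the order went on with miR-291a-5p, miR-292-5p, miR-295-5p, miR-294-5p and miR-291b-5p. In Dox miR-292-5p stood above miR-291a-5p by 1.18-fold and the rest of the order was as before. The closest neighbours were miR-292-5p and miR-295-5p in Control (1.11-fold) and miR-295-5p and miR-294-5p in SB (1.13-fold). The counting intervals of neighbours did not overlap in any library, but without replicates the spread between cultures is not known and the order of such close neighbours is not secured.

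miR-290-5p was the most abundant of all listed miRNAs in Control and in Dox, and it ranked 3 in SB. Its level was 35638 rpm in Control, 18094 rpm in SB and 37406 rpm in Dox. It was thus low in SB and nearly level in the other libraries. Its log2 ratio was −0.98 (−0.99 to −0.97) for SB over Control, the lowest among the 7 arms, and 1.05 (1.04 to 1.06) for Dox over SB. For Dox over Control it was 0.070 (0.063 to 0.076), a 1.05-fold difference that did not keep its direction under the 5 other scalings of the libraries. These were scaling to the reads on listed miRNAs, to the median of ratios, by TMM (a trimmed mean of ratios), by quantile normalization and to miR-26a-5p, which the study used as an unresponsive reference. The ratio was below 0 under 4 of them, lowest with miR-26a-5p at −0.23, and exactly 0 under quantile normalization. In the study's qPCR on the same RNA, relative to miR-26a, miR-290-5p was also lower in SB than in Control and higher in Dox than in SB. Both differences were smaller by qPCR than by sequencing.

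miR-292-5p, which has the seed of miR-290-5p, showed another pattern. It had 1590 rpm in Control, 1345 rpm in SB and 3553 rpm in Dox, so the libraries before Dox lay close together and the Dox library stood well above both. Its log2 ratio was −0.24 (−0.27 to −0.21) for SB over Control, which is 1.18-fold and short of the threshold except with scaling to miR-26a-5p (−0.48), and 1.40 (1.37 to 1.43) for Dox over SB. Against Control the Dox library was 2.23-fold higher, and it was above the threshold under all 6 scalings. As a share of the reads on listed miRNAs, miR-292-5p held 0.561%, 0.557% and 1.06%.

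miR-293-5p, the third arm with this seed, had 4266 rpm in Control, 3661 rpm in SB and 5592 rpm in Dox. The libraries were closer to each other than for the arms above. The log2 ratio of −0.22 for SB over Control was short of the threshold, and its direction turned to 0.010 with the libraries scaled to their reads on listed miRNAs and to 0.19 under quantile normalization, whereas with scaling to miR-26a-5p it was −0.46 and past the threshold. The log2 ratio of 0.61 (0.59 to 0.63) for Dox over SB passed the threshold under 2 of the 6 scalings. Within the CUCAAAC group, therefore, the ratio of Dox over SB ran from 1.53-fold for miR-293-5p to 2.64-fold for miR-292-5p. The group as a whole held 89.0% of the reads of the 7 arms in Control, 86.1% in SB and 88.3% in Dox, and its summed level was 41494, 23100 and 46551 rpm.

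The AUCAAAG arms differed in level by a large factor. miR-291a-5p had 2558 rpm in Control, 1934 rpm in SB and 2999 rpm in Dox, whereas miR-291b-5p had 17.5 rpm (15.1 to 20.2), 11.3 rpm (9.40 to 13.4) and 34.6 rpm (31.0 to 38.4). Both were lowest in SB and highest in Dox. For miR-291a-5p the log2 ratios were −0.40 (−0.43 to −0.38) and 0.63 (0.61 to 0.66) in the comparison with Control and in that with Dox. Each passed the threshold with the authors' scaling and with scaling to miR-26a-5p, and fell short of it under the other 4. Its difference between Dox and Control was small (log2 ratio 0.23) and turned negative under 3 scalings, down to −0.079. For miR-291b-5p the log2 ratios were −0.64 (−0.97 to −0.31) and 1.62 (1.32 to 1.92), from 192, 128 and 342 reads. Of the reads on both arms, miR-291b-5p held 0.680% (0.588 to 0.783) in Control, 0.580% (0.484 to 0.689) in SB and 1.14% (1.02 to 1.27) in Dox, so its share was higher in Dox by more than the counting error. The reads that could belong to either arm were not told apart here.

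miR-295-5p followed the main pattern of low in SB and high in Dox, with 1435 rpm in Control, 947 rpm in SB and 2296 rpm in Dox. Its log2 ratios were −0.60 (−0.63 to −0.56) for SB over Control and 1.28 (1.24 to 1.31) for Dox over SB, and both passed the threshold under all 6 scalings. The level in Dox was 1.60-fold that in Control, which fell short of the threshold under quantile normalization.

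miR-294-5p was the exception. It had 1141 rpm in Control, 842 rpm in SB and 809 rpm in Dox, so that both treated libraries lay below Control and close to each other. The log2 ratio was −0.44 (−0.48 to −0.40) for SB over Control, past the threshold under 2 of the 6 scalings, and −0.058 (−0.10 to −0.015) for Dox over SB, where each of the other 6 arms was higher. The interval of miR-294-5p in the comparison with Dox did not overlap that of any other arm. With the libraries scaled to their reads on listed miRNAs this ratio was −0.53, and it was below 0 under all 6 scalings and past the threshold under 4. Against Control the log2 ratio in Dox was −0.50 (−0.54 to −0.46), and miR-294-5p was the 1 member past the threshold in this direction, under all 6 scalings.

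Set beside all listed miRNAs, the 5p arms leaned the same way as the libraries did. For SB over Control, 5 of the 7 arms were lower past the threshold, against 42.9% of all listed miRNAs, and none was higher, against 26.0%. The median log2 ratio was −0.44 over the arms and −0.19 over all listed miRNAs. For Dox over SB, 6 of the 7 arms were higher, against 52.5% of all listed miRNAs, and none was lower, against 26.6%. The medians were 1.05 and 0.38. For Dox over Control, 4 of the 7 arms were higher (miR-291b-5p, miR-292-5p, miR-293-5p and miR-295-5p), against 42.6%, and 1 was lower, against 29.1%, with medians of 0.39 and 0.19. The comparisons share libraries, so they are not independent of each other.

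The lean of the whole list depended on the scaling. When the libraries were scaled to their reads on listed miRNAs instead, the median over all listed miRNAs was 0.038 for SB over Control and −0.090 for Dox over SB. The share of higher among all miRNAs past the threshold was 37.7% for SB over Control under the authors' scaling and 52.3% under this scaling, and for Dox over SB it was 66.4% and 43.7%. The counts of arms moved with it. For SB over Control the 5 lower arms became 3 under 4 of the 5 other scalings, which put between 32.0% and 37.2% of all listed miRNAs on this side, and 7 with scaling to miR-26a-5p, which put 55.0% there. For Dox over SB the 6 higher arms became 4, with 1 lower, under the same 4 scalings (32.0% to 39.4% of all higher and 34.8% to 41.3% lower) and were again 6 with miR-26a-5p (49.9% of all). For Dox over Control the 4 higher arms became 3 under all 5 (28.9% to 35.2% of all), and miR-293-5p passed the threshold under 2 of the 6 scalings. Relative to the median of all listed miRNAs, which does not depend on a scaling by 1 factor per library, the log2 ratio for SB over Control was −0.78 for miR-290-5p, −0.44 for miR-291b-5p and −0.41 for miR-295-5p, and it lay between −0.25 and −0.028 for the other 4. In the comparison with Dox the relative value was 1.24 for miR-291b-5p, 1.02 for miR-292-5p, 0.90 for miR-295-5p and 0.67 for miR-290-5p. It was 0.25 for miR-291a-5p, 0.23 for miR-293-5p and −0.44 for miR-294-5p. Among all listed miRNAs, 12.8% had a lower ratio of SB over Control than miR-290-5p, and 86.9% had a lower ratio of Dox over SB than miR-292-5p.

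**Figure D2:**
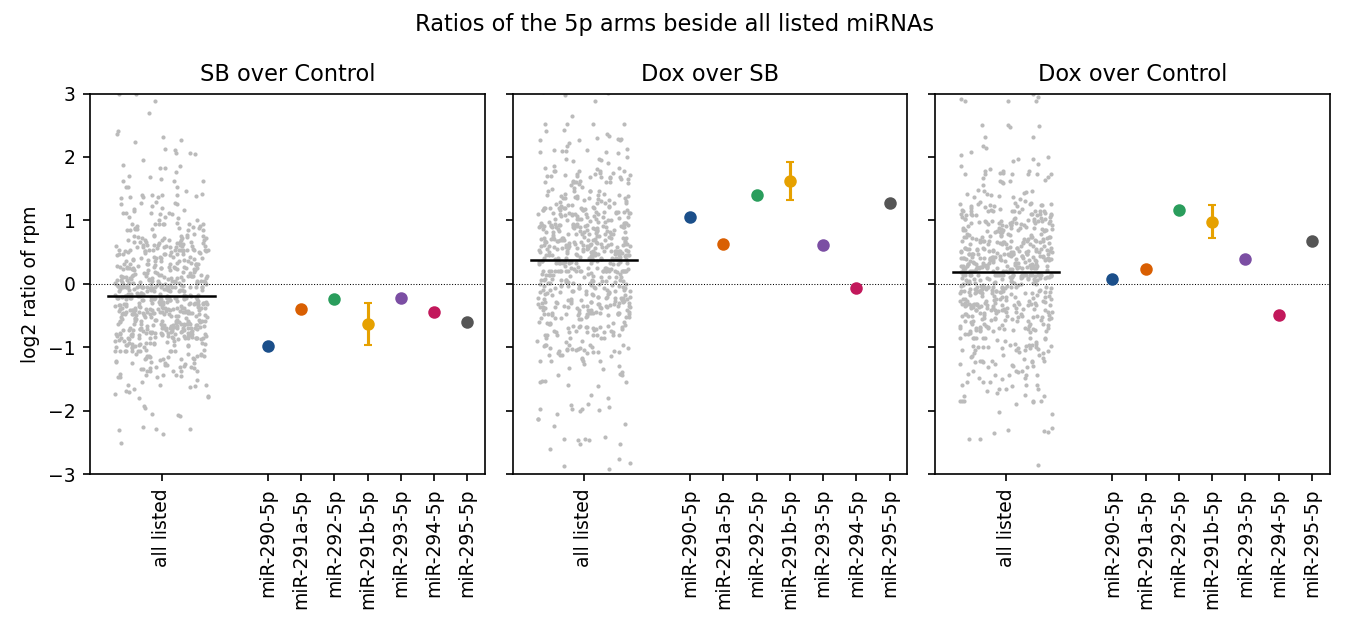
Log2 ratio of rpm in each comparison for all 693 listed miRNAs (grey points, median as a black line) and for the 7 arms (coloured points with 95% exact intervals of counting error). Under the authors' scaling all 7 arms lie below 0 for SB over Control and 6 lie above 0 for Dox over SB, and the median of all listed miRNAs lies on the same side of 0, at −0.19 and 0.38. Of the grey points, 29 lie beyond the plotted range of 3 in size.

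**Figure D3:**
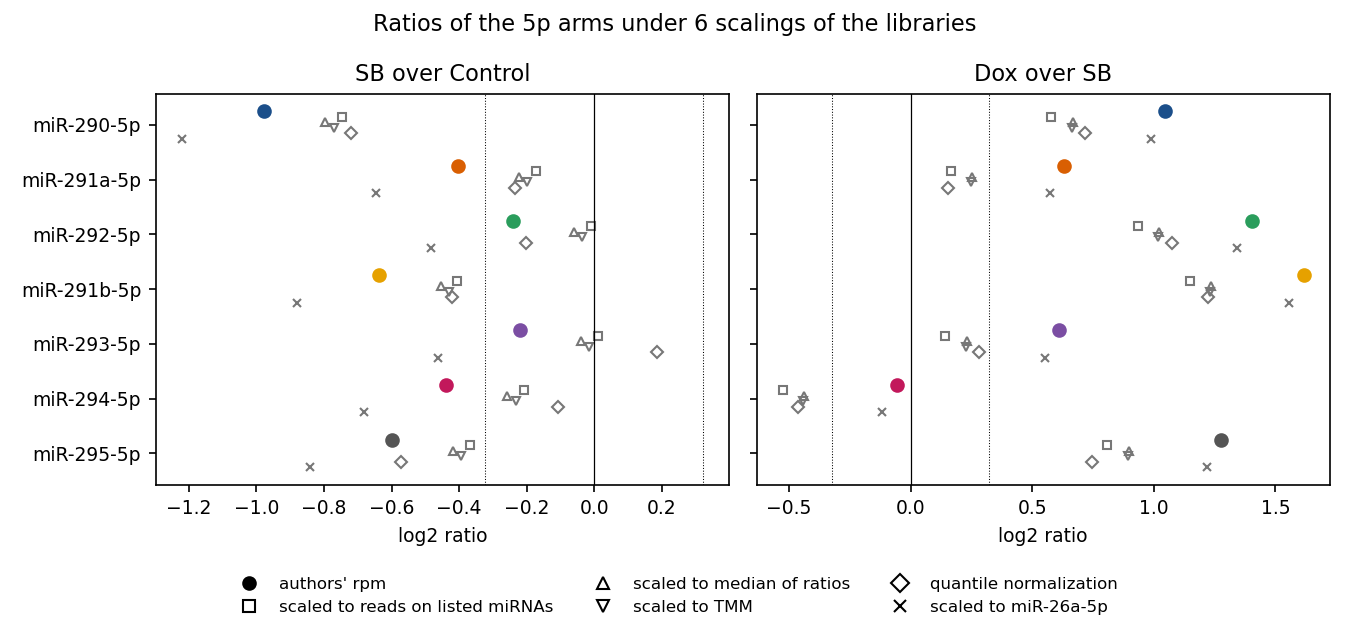
Log2 ratio of each arm (x axis) for SB over Control and Dox over SB under 6 scalings of the libraries, with the authors' rpm as filled coloured circles and dotted lines at log2 ratios of 0.32 in size. miR-290-5p, miR-291b-5p and miR-295-5p stay past the threshold in both comparisons under all 6 scalings, miR-292-5p does so for Dox over SB, and miR-293-5p crosses 0 for SB over Control.

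The 3p arm of each hairpin gives a reference inside the same library, because the share of a hairpin's reads that falls on the 5p arm does not depend on how libraries are scaled. The 5p arm was the abundant one for miR-290, miR-291a and miR-291b, and the 3p arm for miR-293, miR-294 and miR-295, in every library. The 5p share was 99.95% in Control for miR-290 (390434 reads against 183 on the 3p arm), 84.1% for miR-291a and 83.8% for miR-291b. It was 17.9% for miR-293, 20.4% for miR-294 and 18.6% for miR-295. Neighbouring hairpins of 1 transcript thus differed in which arm had more reads. How well each arm is captured and amplified was not measured, so this is a balance of reads and not of molecules.

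The 5p share was lower in SB than in Control for all 7 hairpins, although the intervals of miR-291b overlapped. Summed over the cluster, it was 57.0% in Control (56.9 to 57.1), 41.2% in SB (41.1 to 41.3) and 56.2% in Dox (56.1 to 56.3). Without the miR-290 hairpin, whose 5p arm gave most of the reads, the shares were 23.9%, 18.6% and 27.1%. The 3p arms as a sum were not lower in SB than in Control, with 35140, 38285 and 41068 rpm, or 12.4%, 15.9% and 12.3% of the reads on listed miRNAs. Over the 3p arms the median log2 ratio was 0.26 for SB over Control and −0.33 for Dox over SB, with 3 arms higher (26.0% of all listed miRNAs) and none lower (42.9%) past the threshold in the former and 4 lower (26.6%) and 2 higher (52.5%) in the latter. These medians were opposite in sign to those of the 5p arms, but the sum of the 3p arms for Dox over SB was not (log2 ratio 0.10), since miR-293-3p, the most abundant, was higher in Dox (26448 rpm, from 18792 rpm in SB). As a share of the reads on listed miRNAs the 3p sum was lower in Dox than in SB.

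miR-292 was the hairpin whose abundant arm differed between libraries. Its 5p share was 26.6% (26.3 to 26.9) in Control, 17.95% (17.7 to 18.2) in SB and 56.5% (56.1 to 56.9) in Dox. In Dox miR-292-5p had 3553 rpm and miR-292-3p 2740 rpm, whereas in SB miR-292-3p had 6146 rpm and was 4.57-fold above the 5p arm. The ratio of 5p to 3p was 5.93-fold higher in Dox than in SB and 3.58-fold higher than in Control.

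For miR-291a the 5p share was 77.0% in SB and 90.6% in Dox, and for miR-295 it was 12.1% and 22.6%. For miR-294 it was 12.6% in SB and 18.01% in Dox, since miR-294-3p differed more between them (5839 rpm in SB and 3682 rpm in Dox) than miR-294-5p did. miR-293 stood apart, with 5p shares of 17.9%, 16.3% and 17.5%, and the ratio of its arms differed by less than the threshold in each comparison. For miR-290 the share was 99.95%, 99.88% and 99.96%, and its 3p arm had 183, 238 and 165 reads.

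**Figure D4:**
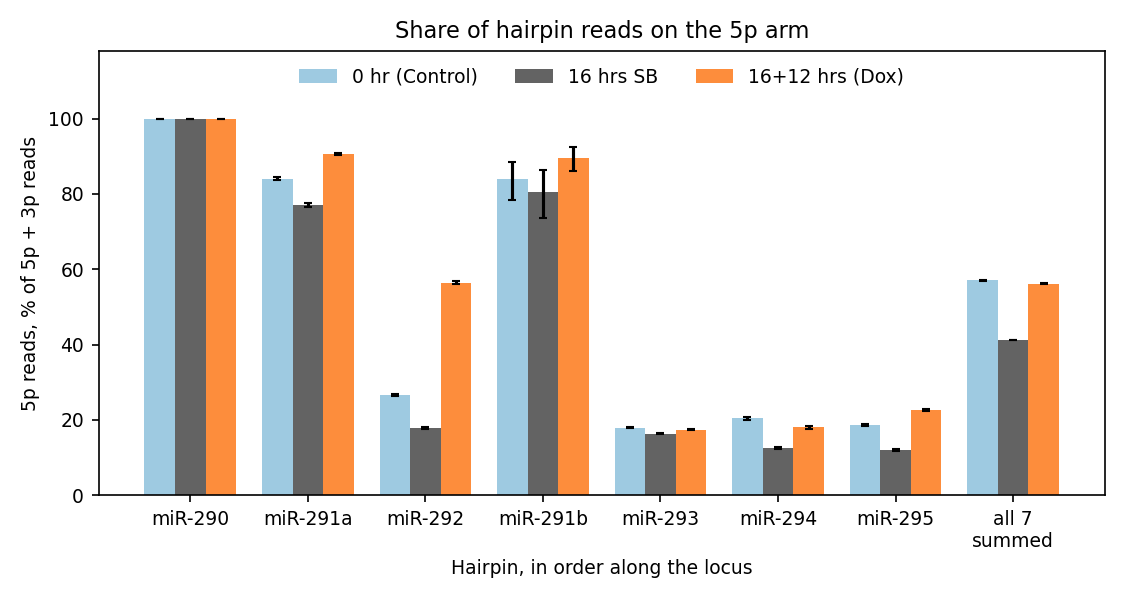
Share of reads on the 5p arm (% of 5p and 3p reads, bars from 0, with 95% exact binomial intervals of counting error) for each hairpin in the order of the locus and for all 7 summed, in the 3 libraries. Each dark bar (16 hrs SB) is below the 0 hr bar of its hairpin, and for miR-292 the 5p arm goes from 17.95% in SB to 56.5% in Dox.

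Hairpins with both listed arms at 100 reads or more in every library gave the background for the arm ratios. There were 62 such pairs, 6 of them from the cluster, since miR-291b-3p had between 31 and 40 reads. For SB over Control, the ratio of 5p to 3p was lower past the threshold in 5 of the 6 cluster pairs, against 29.0% of all pairs, and higher in none, against 21.0%. The median change was −0.73 on the log2 scale over the cluster pairs and −0.037 over all pairs. For Dox over SB it was higher in 5 of the 6, against 45.2%, and lower in none, against 30.6%, with medians of 1.23 and 0.25. For Dox over Control it was higher in 3 of the 6, against 45.2%, and lower in none, against 24.2%, with nearly equal medians of 0.21 and 0.19.

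Some hairpins stood near the ends of this background. For SB over Control, the miR-290 hairpin had a change in the log2 ratio of its arms of −1.31 (−1.58 to −1.03, approximate interval of counting error), and 1 of the 62 pairs had a lower one. For Dox over SB, miR-292 had 2.57 (2.53 to 2.60) and ranked 3 of 62, and miR-291a had 1.53 and ranked 4. miR-290 was further from the end, with 1.38 (1.09 to 1.66) and rank 9. miR-293 lay inside the background with 0.12 and ranked 36. The arms of a hairpin come from the same precursor, and hairpins of the cluster come from the same transcript, so these pairs are not independent of each other.

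Among the 159 other miRNAs with at least 100 rpm in a library, the 5 whose pattern was nearest to that of miR-290-5p were found by the distance between the log2 ratios of SB over Control and of Dox over SB, which is a likeness over 3 libraries. The nearest was miR-323-3p at a distance of 0.13, followed by miR-382-5p at 0.14 and miR-17-3p at 0.15. Next came miR-665-3p, at 0.16, and then miR-485-5p, also at 0.16. They were far less abundant, between 414 and 1922 rpm in Control. The 3p arm of the miR-290 hairpin was too low to be a candidate. Its levels were 16.7 rpm in Control, 21.0 rpm in SB and 16.7 rpm in Dox.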

How the data were processed

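Short RNA libraries of mouse TAG1 ES cells (1 per condition) were sequenced by the authors over 2 runs. According to the methods, adaptors were clipped with the FASTX tool kit, reads of 16 bases or fewer were dropped, and Bowtie (0.12.7) matched the rest without mismatches to mature sequences of miRBase release 18 and then to its hairpins. A read with several matches went to the miRNA nearest in length or, on a tie, to each. The deposited values are RPM by the authors, whose divisor was smaller than the run totals, and a miRNA is listed from 10 reads in all libraries together.

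Here 1 step per library turned all 2079 values into whole reads (within 0.1 of a read). Fold changes are ratios of rpm without a pseudocount or filter, and the threshold was the fold of the study (0.32 as a log2 ratio). With 1 library per group no count model or p-value was possible. Exact intervals were Poisson or Clopper-Pearson, and intervals of changes in arm ratio used the normal approximation. Python 3.11.15 with scipy 1.17.1 was used, tested on simulated data. Sequences were from RefSeq and annotation from GENCODE M21 (GRCm38). Named miRNAs were the 7 arms, their 3p arms, miRNAs sharing a seed, the 5 nearest to miR-290-5p, and marker lists. The members and lists were chosen with earlier results of these data known.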

Additional observations from a re-analysis of the deposited data

How the results depend on the processing

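The alternatives were other scalings, fold thresholds of 1.5 and 2, a pseudocount of 1 rpm and a minimum of 100 rpm in a library, which leaves out miR-291b-5p. Arms lower in SB than in Control numbered 3 in place of 5 when libraries were scaled to reads on listed miRNAs, by the median of ratios, by TMM or by quantile normalization (32.0%, 33.5%, 32.5% and 37.2% of all listed miRNAs), 7 with scaling to miR-26a-5p (55.0%), 3 at 1.5-fold (30.4%) and 0 at 2-fold (12.4%). Under the first 4 scalings 4 arms in place of 6 were higher in Dox than in SB (32.0% to 39.4%) and 1, miR-294-5p, was lower (34.8% to 41.3%), and 4 were higher at 2-fold (24.1%). Against Control, 3 arms in place of 4 were higher in Dox under the 5 scalings (28.9% to 35.2%) and 1 at 2-fold (15.6%), and 0 were lower at 1.5-fold (20.1%) or 2-fold (11.3%). In the order reads on listed miRNAs, median of ratios, TMM, quantile and miR-26a-5p, the median log2 ratio of the arms was −0.21, −0.26, −0.23, −0.23 and −0.68 for SB over Control, 0.58, 0.67, 0.66, 0.72 and 0.99 for Dox over SB, and 0.15, 0.19, 0.21, 0.17 and 0.089 for Dox over Control. With the minimum of 100 rpm the medians for Dox over SB and Dox over Control were 0.84 and 0.31. Scaling to the run totals, added after seeing the data, kept every count and gave 0.98 and 0.33. The summed level was 164730, 111228 and 157863 rpm on the scale of reads on listed miRNAs in Control, SB and Dox. The 5p share of the cluster was 23.9%, 18.6% and 27.1% without the miR-290 hairpin and 50.2%, 45.2% and 56.4% as a mean over hairpins. Among 165 values of single arms under the alternatives, 9 had the opposite sign, in miR-290-5p, miR-291a-5p and miR-293-5p for comparisons short of the threshold. The cause was not tested. Depth limits miR-291b-5p most, with 128 to 342 reads. No paired analysis was possible because each condition has 1 library.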
